A study of Mus musculus with 10 samples.

Results

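Tetraspanins are small membrane proteins that cross the membrane several times and gather integrins, immunoglobulin-type receptors and membrane proteases into microdomains of the cell surface. Platelets, which have no nucleus and bud from megakaryocytes, carry several of them, and CD9 is known as one of the most abundant proteins of the platelet surface. Mice lacking single members show mild to moderate changes in integrin alphaIIb-beta3 function, granule release or glycoprotein VI signalling. The genes described here are 8 family members known from platelets (Cd9, Cd63, Cd81, Cd82, Cd151, Tspan9, Tspan32 and Tspan33), taken by symbol from a count table of 23420 genes, in which all 8 are listed.

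The counts come from 5 Tomato+ and 5 Tomato- libraries of platelets sorted by flow cytometry from the blood of adult mice. Tomato is a red fluorescent protein. What drives it, the strain, any treatment, the age in weeks and the number of animals per library were not given in the sources used here, so both groups are known only by the presence or absence of the reporter, and the comparison asks which transcripts differ with it. Total counts ran from 5411417 to 16179973 per library. Between 807 and 2450 genes had a count, and the 3 libraries with under 1000 detected genes were all Tomato- (replicates 1, 2 and 5). All 9 platelet markers examined had counts, and their sum was 56433 ± 6657 CPM (counts per 1000000 counts of the library) in Tomato+, against 57920 ± 5905 CPM in Tomato- (mean ± SD, n = 5 each). The defining markers of B cells (4 of 4 genes present in the count table) and of mast cells and basophils (4 of 4) were at 0 in every library. The listed markers Ighm (B cell), Trac (T cell), Ly6g (neutrophil) and Adgre1 (monocyte) were absent from the count table. Of the T and NK cell markers 1 of 5 had counts (Nkg7, 20.7 CPM at most), and of the neutrophil markers 1 of 7 (S100a9, 47.96 ± 107 CPM in Tomato+ and 0 in Tomato-). The summed monocyte markers, almost all Lyz2, stood at 6256 to 8692 CPM in Tomato+ and 5881 to 9029 CPM in Tomato-, while Csf1r, Ccr2 and Cd68 were at 0. Red cell markers summed to 1.38 to 338 CPM in Tomato+ and 47.7 to 3440.2 CPM in Tomato-. Beta-s made up nearly all of these sums, while Hba-a1, Hba-a2 and Slc4a1 were at 0. Hbb-bs and Hbb-bt were absent from the count table. Endothelial markers, led by Pecam1, which platelets also express, summed to 464 to 1501 CPM in Tomato+ and 130.3 to 1725 CPM in Tomato-, with Cdh5 at 0.

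Cd9 dominated the tetraspanin RNA of both fractions. It was the 6th most abundant of 4437 genes with counts and an annotated length, at 30318 ± 4419 TPM (counts corrected for exon length and scaled to a sum of 1000000 per library) in Tomato+ and 28058 ± 3364 TPM in Tomato- (mean ± SD, n = 5 each). Cd81 followed at 1468 ± 246 TPM in Tomato+ and 2413 ± 897 TPM in Tomato-. Cd151 and Tspan9 lay far below, Cd63 and Tspan32 had counts in 2 libraries each, Tspan33 had 1 read in all, and Cd82 had none. Of the 4 members that could be tested, 0 passed the edgeR test between Tomato+ and Tomato- platelets, as did 0 of 1016 genes tested (0%). In such bulk samples fewer platelets with a transcript and less of it per platelet cannot be told apart.

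Of the summed per-length level of the 8 genes, Cd9 made up 93.9 ± 1.05% in Tomato+ and 90.5 ± 4.31% in Tomato- (n = 5 each). The share ran from 93.1 to 95.7% in Tomato+ libraries and from 83.0 to 93.7% in Tomato- libraries, so the groups overlapped. Cd81 made up 4.60 ± 0.837% in Tomato+ and 7.93 ± 3.45% in Tomato-. Cd151 made up 1.02 ± 0.590% and Tspan9 0.398 ± 0.570% in Tomato+, and in Tomato- the shares were 0.596 ± 0.897% for Cd151 and 0.802 ± 0.773% for Tspan9. The lowest share of Cd9, 83.0%, was that of Tomato- replicate 5, in which Cd81 took 13.7%.

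**Figure D1:**
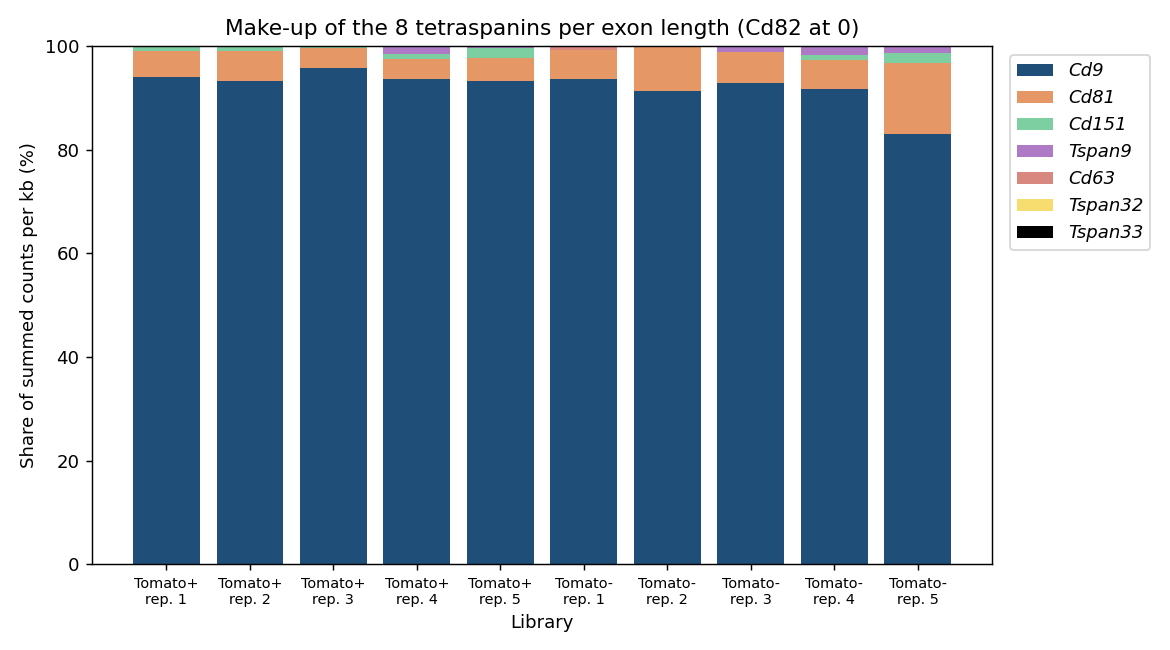
Share of each gene in the summed counts per kilobase of exon of the 8 tetraspanins (vertical axis, %), 1 bar per library, Tomato+ libraries on the left and Tomato- on the right. Cd9 fills 83.0 to 95.7% of every bar and Cd81 most of the rest. Shares under about 1% are barely visible and Cd82 was at 0.

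CD9 associates with integrin alphaIIb-beta3 and with other tetraspanins at the platelet surface and restrains integrin function in mice. Its gene lies on chromosome 6 at 125460266 to 125494791 on the minus strand (GRCm38), with 2044 bases of exon. Cd9 had 24919.5, 26199.6, 32479.6, 26609 and 21374 CPM in Tomato+ replicates 1 to 5, and 27338, 24376, 26595, 22479 and 19590.4 CPM in Tomato- replicates 1 to 5. The highest value was Tomato+ replicate 3 and the lowest Tomato- replicate 5, and the other 8 libraries of both groups were interspersed. The log2 fold change, Tomato+ over Tomato-, was 0.35 (SE 0.17, 95% interval -0.01 to 0.70, edgeR unadjusted p = 0.0538, adjusted p = 0.9996), an interval that ends short of 2-fold both ways. That estimate is on edgeR's TMM scale (trimmed mean of M values), on which the median of all 1016 genes tested was 0.21. With scaling by total counts that median was -0.03, and the log2 fold change of Cd9 was 0.13 (SE 0.12). The SE was larger in some other fits. DESeq2, an alternative test, gave 0.22 (SE 1.36), and edgeR with no filter on low counts gave 0.43 (SE 0.30). An interval short of 2-fold thus belongs to the main fit and not to every fit.

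Cd9 varied little between libraries, as did other genes of its level. The SD of its log2 CPM over the 10 libraries was 0.21, the 9th smallest of 225 genes with 10 or more counts in every library, whose median SD was 0.68. Among the 4 genes within 1.5-fold of its mean CPM the median coefficient of variation was 16.6%, against 14.3% for Cd9, and 1 of the 4 had a lower one. Its highest and lowest libraries differed 1.66-fold. By mean TPM the gene directly above was Gng11, a G protein gamma subunit, at 31239 ± 1159 TPM in Tomato+ and 30246 ± 2973 TPM in Tomato-. Directly below was B2m, the light chain of MHC class I, at 27006 ± 4525 TPM in Tomato+ and 29994 ± 4683 TPM in Tomato-. Both lay within the spread of Cd9. The smallest root mean square differences from Cd9 in centred log2 CPM were those of Tmsb4x (0.18), Ctla2a (0.20), Fth1 (0.20), Gnas (0.21) and Gng11 (0.22). The median was 0.71 over the 224 genes compared. A gene that did not vary at all would score close to the SD of Cd9, 0.21. This order therefore puts steady genes first and does not show a pattern shared with Cd9. These values describe 10 libraries in which all genes share 1 total per library. Cd81 was 87th in that order, at 0.58.

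CD81, a tetraspanin found on many cell types, is also present on platelets. Cd81 lies on chromosome 7 at 143052739 to 143067934, with 2879 bases of exon, and is the sole other member with counts in every library. It had 1882, 2296, 1837, 1530.3 and 1448 CPM in Tomato+ replicates 1 to 5, and 2274, 3281, 2434, 1977 and 4542 CPM in Tomato- replicates 1 to 5. Tomato- replicates 2, 3 and 5 stood above every Tomato+ library, while Tomato- replicates 1 and 4 lay within the range of Tomato+, so the groups overlapped. The log2 fold change was -0.42 (SE 0.32, 95% interval -1.10 to 0.26, edgeR unadjusted p = 0.207, adjusted p = 0.9996). With scaling by total counts it was -0.69 (SE 0.31, unadjusted p = 0.0413), which did not pass either (edgeR adjusted p = 0.99998).

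The estimate for Cd81 depended most on 1 library, Tomato- replicate 5. The 3 libraries with under 1000 detected genes had 2274, 3281 and 4542 CPM of Cd81, and without them its log2 fold change was -0.25. Left out singly, Tomato- replicate 5, the library with the fewest counts (5411417) and the fewest detected genes (807), gave -0.22, while Tomato- replicate 1 gave -0.51 and Tomato- replicate 2 gave -0.45. B cell markers were at 0 in all libraries, replicate 5 included, but counts of 0 in these libraries do not bound a level. Whether other cells added Cd81 in that library was not tested.

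Per length, Cd9 exceeded Cd81 in every library. The ratio was 18.7, 16.1, 24.9, 24.5 and 20.8 in Tomato+ replicates 1 to 5, and 16.9, 10.5, 15.4, 16.02 and 6.07 in Tomato- replicates 1 to 5. A ratio within a library does not depend on how libraries are scaled. It averaged 20.98 ± 3.78 in Tomato+ and 12.98 ± 4.60 in Tomato- (SD, n = 5 each), and the groups overlapped at Tomato+ replicate 2 and Tomato- replicate 1. The ratio is given as a description, since both genes were chosen with results of these data known.

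**Figure D2:**
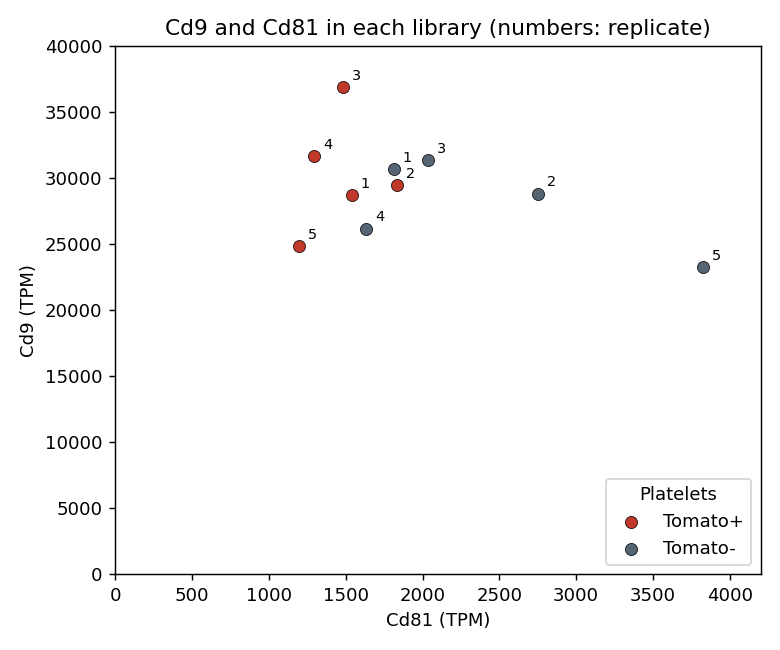
Cd9 (vertical axis, TPM) against Cd81 (horizontal axis, TPM) in each library, Tomato+ in red and Tomato- in grey, with the replicate number beside each point. Cd9 lies between 23234 and 36897 TPM in all libraries, whereas Cd81 reaches 2754 and 3825 TPM in Tomato- replicates 2 and 5 and at most 1832 TPM in Tomato+.

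CD151 binds the laminin receptor integrins, alpha6-beta1 among them, and is needed for full outside-in signalling of alphaIIb-beta3 in mouse platelets. Cd151 (chromosome 7, 141467392 to 141471473) had counts in 5 Tomato+ and 3 Tomato- libraries. It had 247, 399.9, 202, 355 and 612 CPM in Tomato+ replicates 1 to 5, and 6.01, 0, 0, 307 and 643 CPM in Tomato- replicates 1 to 5. Tomato+ libraries thus all lay at 202 CPM or more, while 2 Tomato- libraries lay at 307 and 643 CPM and the other 3 near or at 0, so the groups overlapped. The low ones were replicates 1, 2 and 3, of which 1 and 2 had under 1000 detected genes but replicate 3 had 1838. The log2 fold change of 1.19 (SE 2.14, 95% interval -3.35 to 5.74) did not pass (edgeR adjusted p = 0.9996), and its interval spans large differences both ways. It was 2.30 without Tomato- replicate 5, 5.70 with a replicate block and 6.27 with limma voom, and passed in none of them.

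TSPAN9 is found with glycoprotein VI, the collagen receptor, in the platelet membrane, and mice without it have mildly reduced responses to collagen. Tspan9 (chromosome 6, 127961396 to 128143594, minus strand) had 184, 0, 0.922, 954 and 182 CPM in Tomato+ replicates 1 to 5, and 0, 0, 683, 1005 and 773 CPM in Tomato- replicates 1 to 5. High and absent values occurred in both groups. Its log2 fold change was -0.78 (SE 2.33, 95% interval -5.74 to 4.17, edgeR adjusted p = 0.9996), and -2.36 without Tomato+ replicate 4, which held 954 CPM. By mean TPM, Cd151 stood above Tspan9 in Tomato+ (313 ± 140.1 and 128 ± 194 TPM) and below it in Tomato- (168 ± 252 and 238 ± 224 TPM), and their values overlapped in both groups, so the order of these 2 genes was not resolved.

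**Figure D3:**
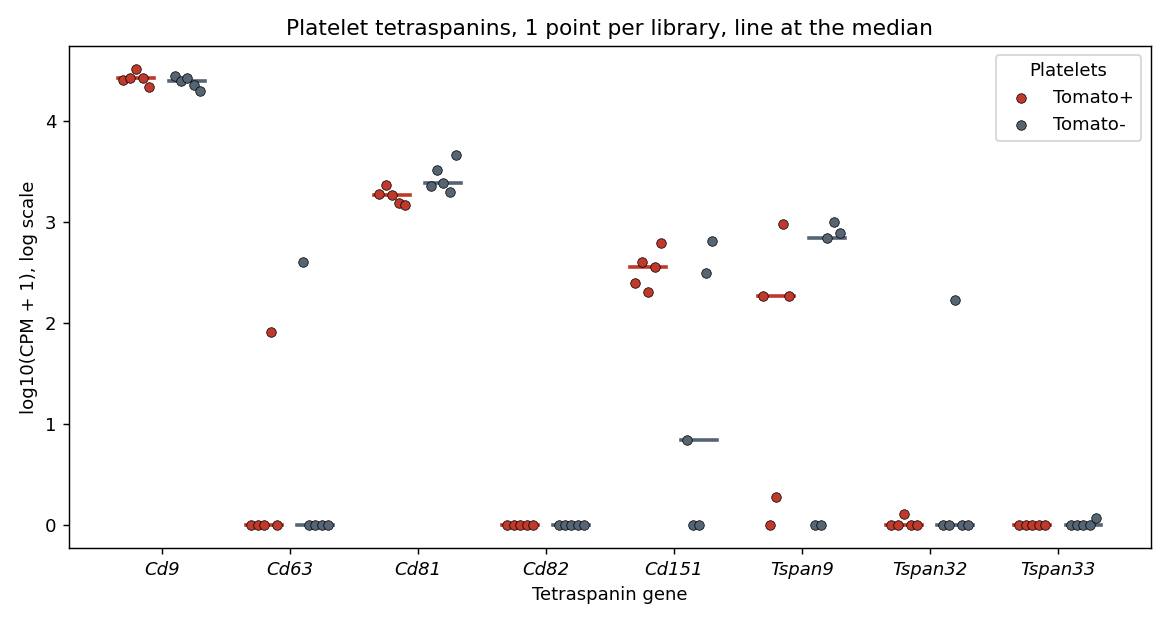
Level of each tetraspanin in each library, as log10(CPM + 1) on the vertical axis, with 1 point per library, Tomato+ in red to the left of Tomato- in grey, and a line at the group median. Cd9 and Cd81 have counts in every library, Cd151 and Tspan9 split into values of 182 to 1005 CPM and values of 6.01 CPM or less, and the other genes lie at or near 0 in most libraries.

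The remaining members were absent from most libraries. Cd63 encodes the tetraspanin of dense granule and lysosome membranes, which reaches the platelet surface on activation. Cd63 (chromosome 10, 128900989 to 128912822) had 1291 counts (79.8 CPM) in Tomato+ replicate 4 and 3257 counts (399 CPM) in Tomato- replicate 1, and 0 in the other 8 libraries. Tspan32, which in mouse platelets supports outside-in signalling of alphaIIb-beta3, lies on chromosome 7 at 143005046 to 143019644, 33.1 kb before Cd81. Tspan32 had 2 counts (0.307 CPM) in Tomato+ replicate 3, against 1787 counts (169 CPM) in Tomato- replicate 3. Tspan33, a partner of the metalloprotease ADAM10 with known roles in red cell formation (chromosome 6, 29694222 to 29718559), had 0 counts in every Tomato+ library and 1 count in Tomato- replicate 5. Cd82, which in mice restrains platelet responses (chromosome 2, 93419111 to 93463140), had 0 counts in all 10 libraries. In a library with 0 counts, 3 counts would correspond to 0.185 to 0.461 CPM in Tomato+ and 0.283 to 0.554 CPM in Tomato-, which covers counting error alone. Since Cd63 was at 0 in 4 Tomato- libraries and at 3257 counts in the other, these limits do not bound the level in the platelets.

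Over the 8 genes and 10 libraries, values were mostly all or none. Of 80 values, 40 were 0, 3 were between 1 and 10 counts, 1 lay between 10 and 1000 (49 counts of Cd151 in Tomato- replicate 1), and 36 were 1000 or more. Thus 90% of the values above 0 were at least 1000 counts, against 57.1% for the other tetraspanins and 48.9% over all listed genes. Cd9 and Cd81 had over 1000 counts in all 10 libraries and add to this share without being all or none. Most values above 0 of Cd151 and Tspan9 were over 1000 counts too. The contrast was not tested and is not read as a trait of the members as a set. A library held counts for 2 to 5 of the 8, with 3 to 5 in Tomato+ and 2 to 5 in Tomato-. Cd151 and Tspan9 were not unusual in this among genes of like mean level: genes within 1.5-fold of the mean CPM of Cd151 (240 genes) and of Tspan9 (193 genes) had counts in a median of 8 libraries, against 8 for Cd151 and 7 for Tspan9. Among 484 genes near the mean of Cd63 the median was 4 libraries, against 2 for Cd63.

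The edgeR test covered 1016 genes, of which 0 were called higher and 0 lower in Tomato+ at an adjusted p under 0.05 (0% in either direction), and 9 had an unadjusted p under 0.05 (0.886%). DESeq2 called 216 of the 2241 genes to which it gave an adjusted p, and 0 members were among them. It gave no adjusted p for Cd63 and Tspan32, and Cd82, with 0 counts, did not enter it. Limma voom called 1 gene, or 2 with robust variances. Of the 8 members, 4 passed the filter on low counts (Cd9, Cd81, Cd151 and Tspan9), with 2 estimates above and 2 below 0, and 0 were called. Ranges of CPM in Tomato+ and Tomato- overlapped for the 4 tested members, and they did not overlap for 6 of the 1016 genes tested (0.591%). The untested members were at 0 in libraries of both groups, so their ranges overlap by construction. Nothing in the labels ties libraries to separate animals, and the p-values therefore reflect the variation among these 10 libraries, part of which may be technical. By their titles the Tomato+ libraries carry sample numbers 1 to 5 and the Tomato- libraries 6 to 10, so sample order and Tomato status cannot be told apart.

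Among the 23 other members of the mouse family, 10 had counts in any library and 3 in at least 3 libraries. The sole one with counts in all 10 was Tspan2, which is best known from the nervous system. Tspan2 had 745, 11.5, 601, 304 and 187 CPM in Tomato+ replicates 1 to 5, and 470.3, 417, 762, 458 and 2030.3 CPM in Tomato- replicates 1 to 5. Its lowest value, in Tomato+ replicate 2, lay 177-fold below its highest, in Tomato- replicate 5, and its log2 fold change of -0.94 (SE 1.15) was -0.30 without Tomato- replicate 5. At 183 ± 148 TPM in Tomato+ and 418 ± 352 TPM in Tomato-, it stood in the range of Cd151.

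TSPAN14 and TSPAN17 belong with TSPAN33 to the group that escorts ADAM10, the protease that sheds glycoprotein VI, to the cell surface. Tspan14 had 0, 563, 0, 1011 and 418 CPM in Tomato+ replicates 1 to 5, and 1081, 0, 454, 748 and 0 CPM in Tomato- replicates 1 to 5. Tspan17 had 0, 6.94, 0.154, 281 and 21.2 CPM in Tomato+ replicates 1 to 5, and 734, 0, 189.8, 403.9 and 0 CPM in Tomato- replicates 1 to 5. The 3 Tomato- libraries with Tspan14 were the same 3 that held Tspan17. Neither passed the edgeR test (log2 fold change -0.03, SE 2.34, for Tspan14 and -1.90, SE 2.66, for Tspan17, adjusted p = 0.9996 each). The estimate for Tspan17 was -4.98 without Tomato+ replicate 4, -1.19 without Tomato- replicate 1 and -0.54 with a replicate block. Adam10 itself had counts in 7 libraries, with 83.6 ± 107 CPM in Tomato+, against 104 ± 110.5 CPM in Tomato-, and Adam17 in 2. The leukocyte tetraspanins Cd37 and Cd53 had counts in 2 Tomato+ libraries each and in no Tomato- library, at most 115 and 0.872 CPM. Cd37, which edgeR's filter left out, was among the DESeq2 calls (DESeq2 adjusted p = 1.3e-14). Yet 3 of 5 Tomato+ libraries had 0 counts of it, as did all Tomato- libraries.

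Of 22 listed partners and neighbours of tetraspanins, 19 had counts and 12 were tested, with 7 estimates above and 5 below 0 and 0 called. Their median log2 fold change was 0.05, beside 0.21 over all genes tested, and with scaling by total counts it was -0.14, beside -0.03. Cd9 stood above all of them per length: its lowest library had 23234 TPM, while the partner with the highest level, Gp9 of the von Willebrand factor receptor, had 8616 ± 1671 TPM in Tomato+ and 8662 ± 2635 TPM in Tomato-, at most 11720 TPM in any library. The integrin subunits that CD9 and CD151 bind were the nearest in function. Itga2b had 3771 ± 989 TPM in Tomato+ and 4446 ± 1002 TPM in Tomato- (log2 fold change -0.03, SE 0.26). Itgb3 had 493 ± 161 TPM in Tomato+ and 539 ± 148 TPM in Tomato- (0.10, SE 0.49). Itga6, the laminin receptor chain, had 591 ± 298 TPM in Tomato+ and 667 ± 403 TPM in Tomato- (0.01, SE 0.55). Itgb1 had 1079.95 ± 445 TPM in Tomato+ and 562 ± 501 TPM in Tomato- (log2 fold change 0.995, SE 1.09).

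Gp6, the receptor that TSPAN9 accompanies, had the estimate farthest from 0 among tested partners with 10 or more counts in every library, at 172 ± 90.7 TPM in Tomato+ and 599.8 ± 373 TPM in Tomato- (log2 fold change -1.46, SE 0.72, edgeR adjusted p = 0.9996). Gp1bb, which encodes a partner chain of Gp9, stood at a log2 fold change of -0.13 (SE 0.27), with Gp9 at 0.23 (SE 0.32). The lysosome and granule membrane genes Lamp1 and Lamp2 had counts in 9 and 10 libraries, where Cd63 had them in 2. Lamp1 had 1166 ± 468 TPM in Tomato+ and 1066 ± 933 TPM in Tomato- (log2 fold change 0.31, SE 1.20), and Lamp2 267 ± 116 TPM in Tomato+ and 223 ± 84.3 TPM in Tomato- (0.45, SE 0.62). Sdcbp, which encodes syntenin, an adaptor that binds CD63, had 903 ± 247 TPM in Tomato+ and 768 ± 243 TPM in Tomato- (0.43, SE 0.39). Of the 3 immunoglobulin-type partners listed, Igsf8 had 0 counts in every library and Ptgfrn had a count in 1. F11r had counts in 5 libraries, at 148 ± 217 TPM in Tomato+ and 54.99 ± 86.98 TPM in Tomato-, and was not among the genes tested.

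**Figure D4:**
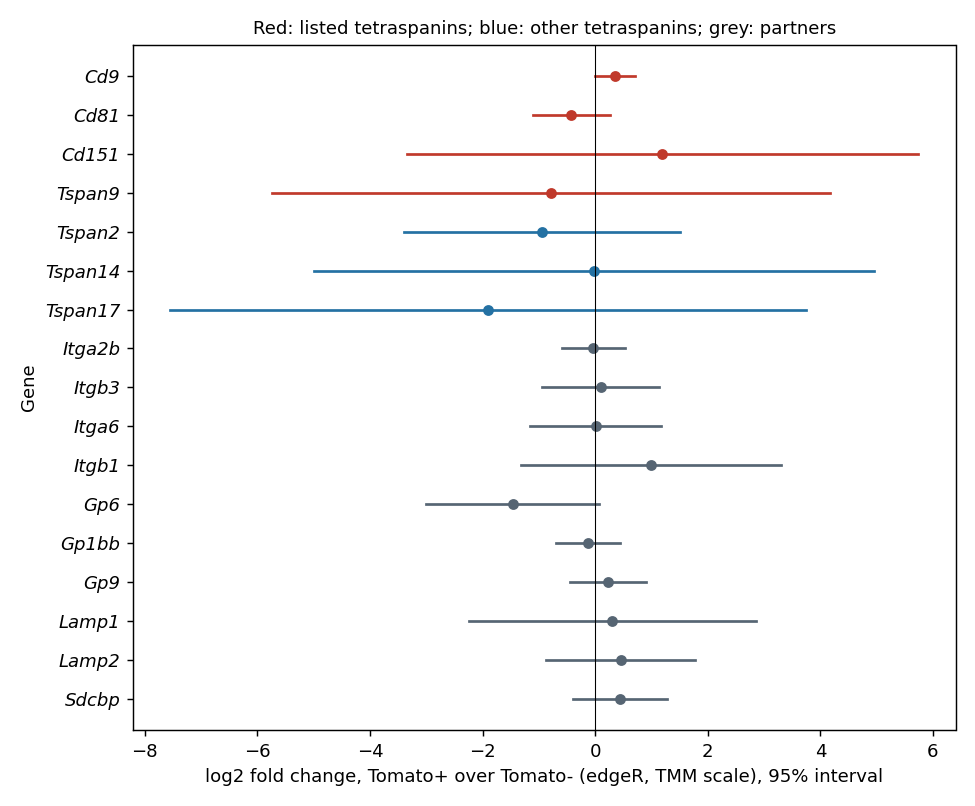
Log2 fold change, Tomato+ over Tomato- (horizontal axis, edgeR on the TMM scale), with 95% intervals, for the 4 tested members (red), 3 other tetraspanins (blue) and the named partners (grey). The interval of every gene shown includes 0; those of Cd9, Cd81, Itga2b, Gp1bb and Gp9 are narrow, and those of Cd151, Tspan9, Tspan14 and Tspan17 span more than 8 log2 units.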

How the data were processed

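Smart-seq+ complementary DNA of polyadenylated RNA was built into Nextera XT libraries, per the labels' protocols. The deposited values are raw counts of reads by gene symbol, 1 column per library, not normalized. Trimmomatic, FastQC, STAR, featureCounts and the build mm10 appear in the submitters' processing notes with no version. The annotation, the strand setting and how multi-mapping reads were handled were not given in the sources used here. Reads shared with processed pseudogenes, which GENCODE M21 annotates for Cd9 and Cd63, and with antisense genes that overlap exons of Cd9, Cd81, Cd151 and Tspan32 are therefore uncertain. Counts carry no molecular identifiers, so limits cover counting error only.

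Exon lengths and coordinates came from GENCODE M21 (GRCm38, the assembly that mm10 names), which held 21777 of the 23420 symbols (93.0%). TPM used the union of exons of each symbol. Those symbols took 91.03 to 96.2% of counts per library. CPM used all counts.

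Genes were tested with edgeR 4.0.16 (R 4.3.3) by its quasi-likelihood test, with TMM factors, robust dispersion and the default filter. Group was the sole term, with Benjamini-Hochberg adjustment over all genes tested at a threshold of 0.05. The fit was also run on counts simulated from its own model, which cannot show whether these libraries follow that model. DESeq2 1.42.0 and limma 3.58.1 (voom) were alternatives; voom was run with default and with robust variances. All 45 pairs of libraries differed by far more than sampling noise (chi-square per degree of freedom at least 510). All members were named, as were other tetraspanins with counts in 3 libraries, partners with 10 counts throughout, and the 2 others with the smallest p. Members and lists were chosen with earlier results of these data known. Genes named beyond this were chosen after their values were seen.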

Additional observations from a re-analysis of the deposited data

Results flagged for a closer look

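Of 28 groups of 5 values (the members, their sum, the share of Cd9, the ratio of Cd9 to Cd81 and 3 other tetraspanins, in each fraction), 3 were at 0 throughout and were not examined (Cd82 in both fractions and Tspan33 in Tomato+). Of the other 25, 9 had 1 library far from the other 4. In 5 of these the other 4 libraries were at 0, so that any count, even 1, stands apart by construction. The usual chance rate of 1 in 20 groups does not apply to such values, so the number 9 cannot be set against it. Without those 5 groups, 4 had a library apart, where 1 in 20 of all 25 groups would be about 1.25. Whether these 4 exceed chance was not tested. Cd63 was apart with 79.8 CPM in Tomato+ replicate 4 and 399 CPM in Tomato- replicate 1, Tspan32 with 0.307 CPM in Tomato+ replicate 3 and 169 CPM in Tomato- replicate 3, and Tspan33 with 0.185 CPM in Tomato- replicate 5, each against 0 in the rest of its group. Tspan9 in Tomato+ replicate 4 had 954 CPM, against 184 CPM in the next library, and Tspan17 in the same library 281 CPM, against 21.2 CPM. Tomato- replicate 5 was apart with a Cd9 share of 83.0% of the summed tetraspanins per length, against 91.3% in the next library, and with 2030.3 CPM of Tspan2, against 762 CPM.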

How the results depend on the processing

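The count of 0 called genes held in the 16 other edgeR settings, while DESeq2 called 216 and limma voom 1. The edgeR settings differed widely in p all the same. Without the filter 1764 of 4692 genes had an unadjusted p under 0.05, against 9 of 1016 in the main fit. The count of 0 therefore does not show that the groups are alike. Voom with robust variances called 2; it was run first, the default replaced it once that count was known, and it is kept as an alternative chosen after seeing the data. With any 1 library left out, edgeR called 0 genes. Cd9 kept a log2 fold change above 0 (0.13 to 0.44) and Cd81 one below 0 (-0.69 to -0.22) in 19 other settings each, with smallest adjusted p of 0.170 (limma voom; 0.436 with robust variances) and 0.618. Without 1 library the log2 fold changes were 0.26 to 0.44 for Cd9, -0.57 to -0.22 for Cd81, 0.80 to 2.30 for Cd151 and -2.36 to -0.30 for Tspan9. Both voom runs gave 6.27 for Cd151 and turned Tspan9 to 0.23; the cause was not tested. Tspan14 turned positive without the filter (0.015), with both voom runs (0.060), with the replicate block (0.43) and without Tomato+ replicates 1 and 3 (0.28 and 0.30) or Tomato- replicates 1 and 4 (0.53 and 0.28), within -0.72 to 0.53 over all libraries left out in turn. Same-numbered libraries showed little joint deviation (correlation over 0.1 in 1 of 5 pairs), and 2 of 5 Tomato+ libraries correlated best with their same-numbered library. With so many values at 0, these correlations cannot decide whether a shared number marks a pair. With the replicate block, Cd9 had 0.37, Cd81 -0.40, Cd151 5.70 and Tspan9 -0.68, and 0 genes were called. Cd9 took 91.4% of the raw counts of the 8 genes in Tomato+ and 86.4% in Tomato-, in place of 93.9% and 90.5% per length, since its exons are shorter. Without 1 library its share per length was 93.5 to 94.2% in Tomato+ and 89.7 to 92.4% in Tomato-. The members with counts in 2 libraries or fewer were not tested.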

Other observations

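Other tetraspanins appeared in 1 or 2 libraries. Tomato+ replicate 5, the library with the most detected genes (2450), alone held Rom1 (356 counts, 31.03 CPM) and Tspan6 (99 counts, 8.63 CPM), and it shared Tspan13 (52.04 CPM) with Tomato- replicate 4 (33.5 CPM), which had 2430 detected genes. Tspan12 had counts in Tomato- replicates 3 and 4 alone, at 4.35 and 61.8 CPM, and Tspan18 in Tomato+ replicates 1 and 2 alone, at 0.428 and 2.12 CPM. Cd37 had 115 CPM in Tomato+ replicate 4 and 38.2 CPM in Tomato+ replicate 5. The other 13 family members had 0 counts in every library.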
